A study of Mus musculus with 8 samples.

Results

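Most chromatin modifier and remodeller genes (76 of 91) carried m6A peaks in both genotypes, and so did 8096 of all 11558 genes with a peak. A peak in *Wtap*-HKO livers met 191 of the chromatin genes' 216 control peaks (88.4%) and 80.1% of all control peaks. The genes were chosen by name: the Kmt2, Kmt5, Kdm, Setd, Hdac, Sirt, Smarc, Arid, Ezh, Brd and Chd families, with Suz12, Eed, Ep300, Crebbp, Dot1l, Ehmt1 and Ehmt2. They came to 91 genes of the 11558 with a peak in either list. They held 216 of 15635 control peaks, in 80 genes, and 245 of 19185 *Wtap*-HKO peaks, in 87 genes.

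N6-methyladenosine (m6A) is laid down on nuclear RNA by a complex in which METTL3 is the catalytic subunit and WTAP an adaptor that holds the enzyme in nuclear speckles. In m6ARIP-seq, RNA fragments are precipitated with an antibody to the mark and sequenced beside the input RNA, and a peak is a stretch of exon with more reads in the IP than in the input. The mark is known for long internal exons and for the neighbourhood of stop codons, and an antibody to it also binds the related cap-adjacent base at the start of many transcripts. Chromatin modifiers write, read or erase marks on histone tails, and remodellers use ATP to slide or evict nucleosomes.

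Livers of 8-week-old C57BL/6 mice on normal chow were compared in 2 genotypes. Control mice had the genotype *Wtap* flox/flox. The hepatocyte-specific knockout, *Wtap*-HKO, added *Alb*-Cre to the same alleles, so both groups carried the floxed alleles and only one carried the recombinase. *Alb*-Cre acts in hepatocytes, and the other cells of these livers kept *Wtap*. Each genotype had 2 IP and 2 input libraries, each made from several mice, and the authors combined the replicates in 1 list of peaks per genotype and in a list of peaks that differed between the genotypes. No value per library was in the lists, so the depth is unknown, no spread between replicates can be given, and each comparison below describes a pair of lists without a replicate check. In whole liver, a different mix of cells and different methylation within a cell cannot be told apart. The lists give enrichment and not expression, so neither the loss of *Wtap* RNA nor the tissue's marker genes could be checked from them. *Wtap* had 3 peaks in each list, with fold enrichments of 8.06, 20.7 and 8.78 in control and 4.47, 20.5 and 20.6 in *Wtap*-HKO livers.

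Of the 91 genes, 76 had a peak in both lists, 4 in the control list only and 11 in the *Wtap*-HKO list only. Among all genes, 7.99% were found in the control list only and 22.0% in the *Wtap*-HKO list only, against 4.40% and 12.1% of the chromatin genes. Of 106 protein-coding RefSeq genes that meet the name rule, 16 had no peak in either list: Hdac1, Hdac3, Hdac7, Hdac10, Ezh1, Ezh2, Ezhip, Smarca1, Smarca5, Smarcd1, Arid3b, Arid3c, Chd5, Kdm4d, Brd3os and Brd8dc. Among the 76 genes, 27 had more peaks in the *Wtap*-HKO list, 39 the same number and 10 fewer. The genes were rich in peaks, with a mean of 2.70 per gene in control and 2.82 in *Wtap*-HKO livers, against 1.73 and 1.80 for all genes. In the control list 11 of the 80 genes (13.8%) had 5 or more peaks, against 2.68% of all genes. Their gene spans were also longer, with a median of 46.7 kb in the control list against 24.1 kb for all genes with a RefSeq span, and the part of length in the number of peaks was not tested.

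A control peak was counted as kept when a *Wtap*-HKO peak shared at least 1 exonic base with it on the same strand. By that measure 191 of 216 control peaks (88.4%, 95% Wilson interval 83.5 to 92%) were kept, and 25 (11.6%) were not, while 19.9% of all control peaks were not. In the other direction 57 of 245 *Wtap*-HKO peaks (23.3%) met no control peak, against 35.3% of all. The Wilson interval covers counting error only, and peaks of one gene are not independent. Control peaks that were not kept had a median fold enrichment (reads in IP over input, linear) of 3.36, and those kept 5.50. *Wtap*-HKO peaks without a control peak had a median of 3.91 against 5.52 for the others, an order opposite to that of all *Wtap*-HKO peaks (6.15 against 5.84).

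**Figure D1:**
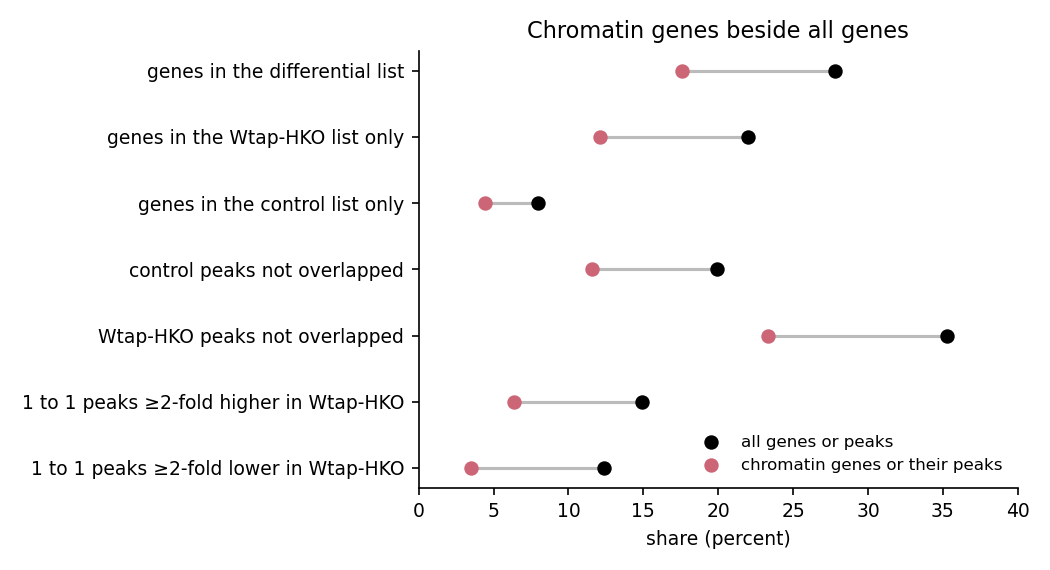
Share in percent (horizontal axis) of chromatin genes or their peaks (red) and of all genes or peaks (black) for 7 counts that compare the control and *Wtap*-HKO lists. The red point lies left of the black one in each of the 7, for example 17.6% against 27.8% of genes in the differential list.

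The height of peaks present in both lists was compared next. A peak was followed from one list to the other where it overlapped exactly 1 peak there and was the only one to do so. There were 173 such peaks in 73 of the genes, with a median fold enrichment ratio (*Wtap*-HKO over control) of 0.03 on the log2 scale (interval of the median -0.06 to 0.14), beside 0.01 for all 10499 such peaks. The intervals of medians, here and below, come from the ranks of single peaks, several of them from 1 gene, and hold no replicate error. For 20 of the 173 the shared bases came to under 50% of the longer peak. Of the 173, 94 were higher in the *Wtap*-HKO list and 79 lower, beside 5289 higher and 5187 lower among all 10499. The interquartile range of the log2 ratios was -0.40 to 0.47, and that of all peaks was -0.58 to 0.66. At least 2-fold higher values were seen for 11 of the 173 (6.36%) against 14.9% of all, and at least 2-fold lower values for 6 (3.47%) against 12.4% of all.

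**Figure D2:**
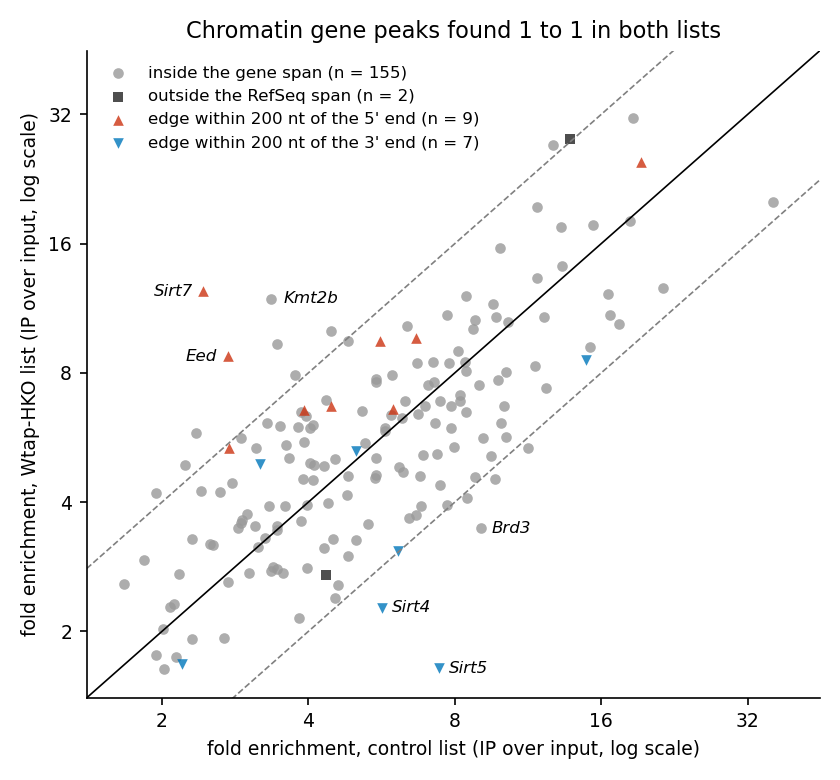
Fold enrichment (IP over input, log scales) of the 173 chromatin gene peaks found 1 to 1 in the control list (horizontal axis) and the *Wtap*-HKO list (vertical axis), with the line of equality and dashed lines at a 2-fold difference. Only 11 peaks lie above the upper dashed line and 6 below the lower one, and all 9 peaks at a 5′ end (red triangles) lie above equality.

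Where a peak lay along the gene went with the direction of its ratio. Peaks with an edge within 200 nt of the 5′ end of the gene span made up 11 of the 209 control peaks that could be placed (5.26%) and 22 of 239 in *Wtap*-HKO livers (9.21%), against 10.9% and 18.5% of all peaks. Of the 11 control peaks, 9 could be followed in both lists, among them those of Sirt7, Eed, Ep300, Sirt1, Crebbp, Smarcd2, Chd3 and Setd1a, and each was higher in the *Wtap*-HKO list (9 of 9, median log2 ratio 0.74, interval 0.36 to 1.68). The Eed peaks shared 1 base only, and without them 8 of 8 were higher, with a median of 0.67. The same was seen for 1099 of 1281 such peaks of all genes, with a median of 0.83. At the 3′ end 5 of 7 peaks were lower, with a median of -0.80 (interval -2.18 to 0.62), beside 584 of 950 peaks and a median of -0.24 for all genes. Over the last 10% of the span the medians were -0.25 (65 peaks) and -0.19 for all genes. In the long stretch between the first and last 10% of the span, the chromatin genes' 87 peaks had a median of 0.13 (interval -0.06 to 0.22) and those of all genes -0.07.

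**Figure D3:**
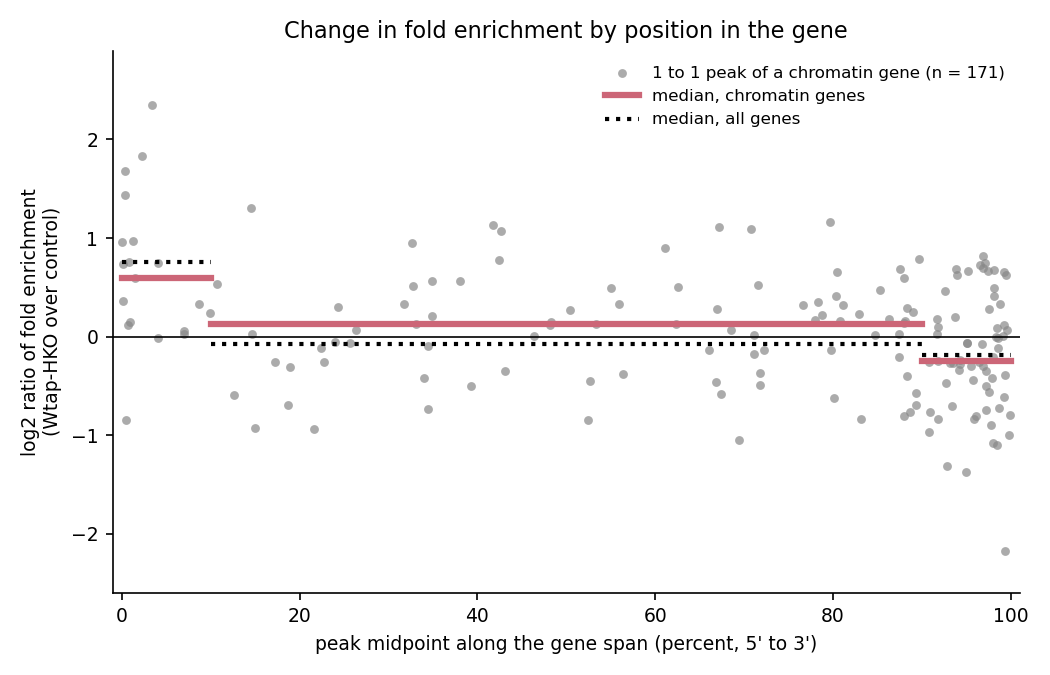
Log2 ratio of fold enrichment, *Wtap*-HKO over control (vertical axis), against the midpoint of the peak along the gene span in percent from 5′ to 3′ (horizontal axis) for the 171 chromatin gene peaks that could be placed, with medians over the first 10%, the middle and the last 10% of the span for these peaks (red) and for all genes (dotted). The first 10% stands highest in both, with medians of 0.59 and 0.76, and the last 10% lowest.

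Of the 57 *Wtap*-HKO peaks with no control peak, 11 of the 54 that could be placed (20.4%) lay at a 5′ end, against 27.6% of all such peaks. To show the RNA at starts under *Wtap*-HKO peaks, with or without a control peak, the first 30 transcribed bases are printed for 7 genes whose *Wtap*-HKO peak covered an annotated RefSeq start in full, read in the direction of transcription from GRCm38.p6. Capitals mark GGAC, the core of the sequence that the m6A methyltransferase prefers. The windows are chr15:81586214-81586243 (+) for Ep300, chr11:120624985-120625014 (-) for Sirt7, chr9:110132024-110132053 (+) for Smarcc1, chr15:88734190-88734219 (-) for Brd1, chr6:125096163-125096192 (+) for Chd4, chr4:136602694-136602723 (-) for Kdm1a and chr8:95715913-95715942 (+) for Setd6. Kdm1a and Setd6 were added after their values were seen. Starts of Smarcd3, Kmt5a and Setd1a were also covered in full and are not printed. The printed windows include both of the 11 with GGAC and the only one that begins with A, so they do not represent the 11.
Ep300: gaaggaggaGGACagcgccgaggaggaaga
Sirt7: gatgaggcggaagcggaagccggaagcgca
Smarcc1: ggaggtggcatctgcgcgcgcgcgcgcggg
Brd1: gctggggagcgagcagcgcctcggcaggcg
Chd4: cggagccggagccattttccccccttcggc
Kdm1a: gggcgcgtgcgcacgcgggggtgtttggct
Setd6: agtgaGGACccggctgctcgcagcatggcg
The peaks over them had fold enrichments of 5.35, 12.4, 12.6, 19.0, 9.49, 10 and 4.80 in the same order. Only the Ep300 start was also covered in full by a control peak, of 2.75. GGAC, searched on the transcribed strand alone, was in 2 of the 11 windows under *Wtap*-HKO peaks of chromatin genes, in 13.8% of the 1253 windows under such peaks of all genes and in 11.2% of all 32851 windows of this length. One of the 11 began with A, against 35.6% of the 1253. G and C made up 74.8% of the bases in the 11 windows, 64.9% in the 1253 and 56.6% in all.

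The lysine methyltransferases were the largest class, with 21 genes and 68 control and 75 *Wtap*-HKO peaks. The median log2 ratio of their 52 peaks found 1 to 1 was -0.02, with 26 higher and 26 lower. Kmt2d, a histone H3 lysine 4 methyltransferase of enhancers, had the most control peaks of any of the genes. It had 10 peaks in each list, and 9 could be followed, with log2 ratios from -0.46 to 0.30. Along its span the 9 fold enrichments were 5.74, 2.91, 8.43, 4.30, 7.25, 8.38, 3.02, 9.70 and 5.48 in control and 5.96, 3.58, 6.48, 3.12, 7.61, 8.48, 2.74, 10.8 and 4.54 in *Wtap*-HKO livers. In the second of the 9 the peaks shared only 31 exonic bases. The remaining control peak, of 4.51, met no *Wtap*-HKO peak and had a row in the differential list. Kmt2a, the MLL1 enzyme of the same family, had 7 control and 12 *Wtap*-HKO peaks. All 7 control peaks were kept, and 3 of them were lower in *Wtap*-HKO livers (6.15 to 10.2 in control, 4.69 to 8.05 in *Wtap*-HKO), while the other 4 were higher in *Wtap*-HKO livers. The steepest of these 4 was 4.45 in control and 9.99 in *Wtap*-HKO livers, a log2 ratio of 1.17. Its 5 additional peaks had fold enrichments of 3.41, 3.69, 3.88, 5.81 and 5.24, and the last, at the 5′ end, shared 82 bases with a peak of an unnamed gene on the other strand, from which its reads cannot be told apart.

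Among the other methyltransferases, single peaks of a gene went in opposite directions. Kmt2b, a paralogue of Kmt2a, carried the largest ratio of the class. Its 5′-most peak (chr7:30588546-30588666, minus strand) had a fold enrichment of 3.35 in control and 11.9 in *Wtap*-HKO livers, a log2 ratio of 1.83, and a row in the differential list. The other 3 peaks of Kmt2b were lower in *Wtap*-HKO livers, at 8.47 against 4.08, 10.1 against 6.70 and 3.38 against 2.82, so 1 gene held both the highest and the lowest ratio of its class. Kmt2c, the sister enzyme of Kmt2d, had 6 control and 5 *Wtap*-HKO peaks. Its tallest control peak, of 13.6, met none in the *Wtap*-HKO list, and a peak of 2.63 in control and 4.23 in *Wtap*-HKO livers had a row in the differential list. Setd2, which trimethylates lysine 36 of histone H3, had the next lowest ratio after Kmt2b, with 8.78 in control against 4.57 in one peak, and 9.14 against 5.63 in its neighbour. A peak in the middle of Setd2 was 7.78 in control and 8.43 in *Wtap*-HKO livers. The SET-domain genes Setd4 and Setdb2 were listed in control only, Setd4 with 1 peak of 5.56 and Setdb2 with 2 peaks of 2.0 and 2.19. Of Polycomb repressive complex 2, which trimethylates lysine 27 of histone H3, Suz12 and Eed had peaks and the catalytic genes Ezh1 and Ezh2 had none in either list. The peak shared by the lists in Suz12 had a fold enrichment of 8.42 in control and 8.06 in *Wtap*-HKO livers, and a 5′ end peak of 8.24 was in the *Wtap*-HKO list only. In Eed a control peak of 2.73 at the 5′ end and a *Wtap*-HKO peak of 8.75 beside it shared 1 base, so they are neighbouring regions rather than 1 peak, and all 150 bases of the control peak lay under a peak of an unnamed gene on the other strand.

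**Figure D4:**
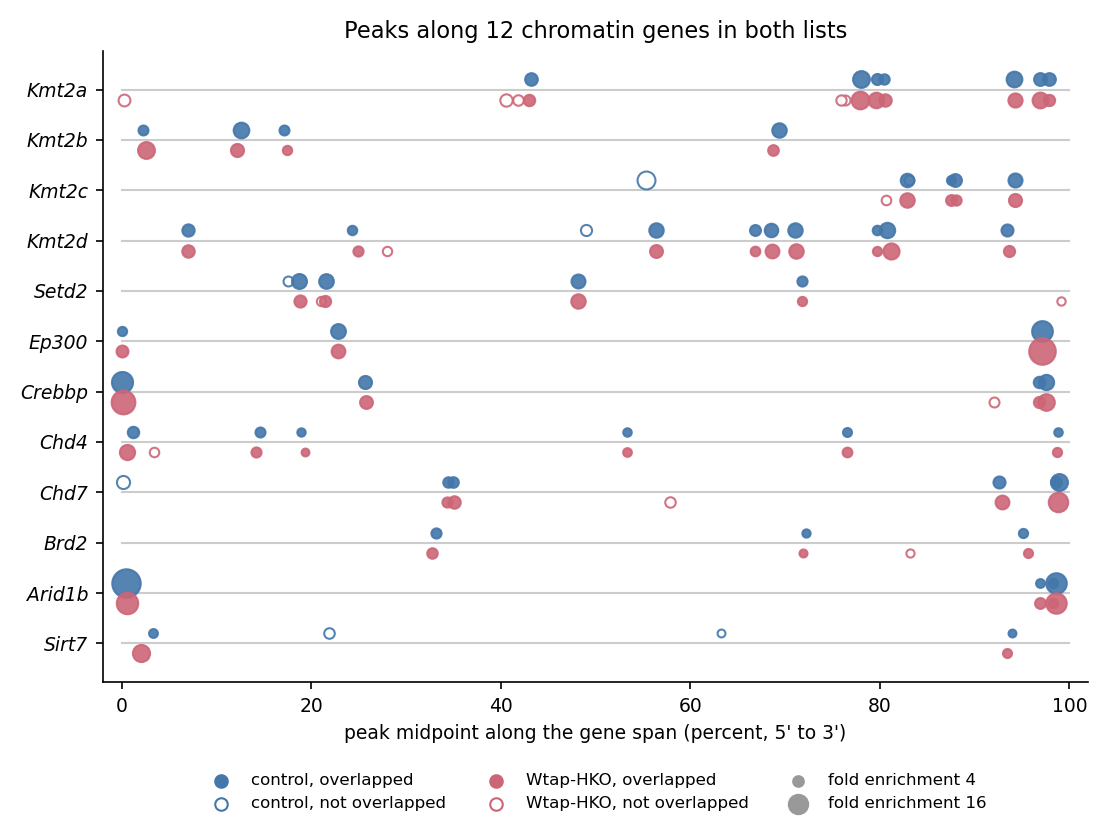
Peaks of 12 chromatin genes at their midpoint along the gene span in percent from 5′ to 3′ (horizontal axis), control above each line in blue and *Wtap*-HKO below it in red, with circle area growing with fold enrichment and open circles for peaks that met none in the other list. The circles above and below the Kmt2d line pair off for 9 of 10 peaks, while Kmt2a has 5 open red circles and Sirt7 2 open blue ones.

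The 17 lysine demethylases had 37 control and 39 *Wtap*-HKO peaks, and their 32 peaks found 1 to 1 had a median log2 ratio of 0.04. Kdm2a, Kdm3b, Kdm5a and the Y-linked Kdm5d led the class in control livers with 4 peaks each. For Kdm5d, 2 of the 4, of 28.1 and 13.8, lay outside its RefSeq span. In Kdm2a, a lysine 36 demethylase of histone H3, all 4 were kept, from 3′ to 5′ at 2.01, 7.27, 3.50 and 4.39 in control and 2.02, 6.10, 6.02 and 3.99 in *Wtap*-HKO livers. The first peak of Kdm5a, a lysine 4 demethylase, was 3.44 in control and 9.34 in *Wtap*-HKO livers, the largest ratio of the class (log2 1.44), but these peaks shared only 31 exonic bases, and 171 bases of the *Wtap*-HKO peak lay under a peak of 29.8 of Ccdc77 on the opposite strand. Its paralogue Kdm5b held the smallest ratio, 11.3 in control and 5.35 in *Wtap*-HKO livers. Kdm4a, which removes methyl groups from lysines 9 and 36, had an internal peak of 2.23 in control and 4.89 in *Wtap*-HKO livers that was also in the differential list, and its remaining peaks were 7.36 against 5.19 and 3.18 against 4.90. In 3 genes of the class a peak was found in one list only. Kdm6a, the X-linked lysine 27 demethylase UTX, had neighbouring control peaks of 4.78 and 2.55, none in *Wtap*-HKO livers and a row in the differential list (chrX:18254149-18254568, plus strand). Kdm4c had 1 control peak of 3.02, and Kdm8 1 *Wtap*-HKO peak of 9.03, over 90 bases and at a false discovery rate of 0.00087.

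Ep300 and Crebbp, the co-activators that acetylate lysine 27 of histone H3, had 7 control peaks between them and 9 *Wtap*-HKO peaks. All 7 control peaks were kept, beside 80.1% of all control peaks. Those of Ep300 were 2.75, 8.97 and 18.6 from 5′ to 3′ in control and 5.35, 7.50 and 31.3 in *Wtap*-HKO livers, so the peaks at both ends were higher and the middle one lower. A further *Wtap*-HKO peak of Ep300, of 8.49, lay just outside its RefSeq span. In Crebbp the 5′ end peak was 19.3 and 24.8, the next 6.71 and 6.42, and the pair near the 3′ end 4.83 and 9.57 in control against 4.59 and 11.6 in *Wtap*-HKO livers. None of the 7 differed by 2-fold, while 14.9% of all peaks found 1 to 1 were at least 2-fold higher and 12.4% at least 2-fold lower.

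The zinc-dependent deacetylases had few peaks. Hdac1, the class I deacetylase that the study follows, had none in any of the 3 lists, and neither had Hdac3, Hdac7 or Hdac10, so 4 of the 11 genes were without a peak. An absent peak does not show an unmethylated transcript, since the depth behind the lists is unknown. The other 7 genes held 5 control and 10 *Wtap*-HKO peaks. Hdac2, the close paralogue of Hdac1, had 1 peak, of 2.31 in control and 1.92 in *Wtap*-HKO livers, low in the range of the genes. Hdac4, a class IIa deacetylase that shuttles between nucleus and cytoplasm, had 2 neighbouring peaks near its 3′ end of 9.66 and 7.47 in control and 4.52 and 6.89 in *Wtap*-HKO livers. It also had a *Wtap*-HKO peak of 20.8 with no control peak, over 121 bases and at a false discovery rate of 3.0e-05. Hdac5 had a kept peak of 2.92 and 3.64, and Hdac8 a 3′ end peak of 14.9 and 8.58. Hdac6, Hdac9 and Hdac11 were in the *Wtap*-HKO list only, with 1 peak each of 10.8, 8.58 and 2.15. None of the 7 deacetylase genes with a peak had a row in the differential list, against 27.8% of all genes with a peak that had one. So few genes cannot set the class apart.

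The sirtuins, NAD-dependent deacylases, held the extremes of the whole set in both directions. Sirt7, a nuclear and nucleolar member, had the highest ratio of the 173 peaks at its 5′ end (chr11:120624701-120624881 in the control list, minus strand), with a fold enrichment of 2.43 in control and 12.4 in *Wtap*-HKO livers and a log2 ratio of 2.35. A second Sirt7 peak was 1.67 and 2.58, and control peaks of 3.95 and 1.66 met none in *Wtap*-HKO livers. Sirt5, a mitochondrial desuccinylase, had the lowest ratio in its 3′ end peak (chr13:43394785-43395203, plus strand), with 7.42 in control and 1.64 in *Wtap*-HKO livers and a log2 ratio of -2.18. The *Wtap*-HKO peak covered 91 exonic bases and the control peak 419. Sirt4, also mitochondrial, was lower at its 3′ end (5.66 against 2.27) and higher in its other peak (6.68 against 8.42). Sirt3, the main mitochondrial deacetylase, had a single peak of 2.35 and 5.79. In Sirt1, the nuclear deacetylase of the family, all 3 peaks were kept, from 5′ to 3′ at 5.62, 3.65 and 13.3 in control and 9.49, 5.06 and 14.2 in *Wtap*-HKO livers. Sirt6, a chromatin-bound member, had a single *Wtap*-HKO peak of 3.91. The Sirt3 and Sirt5 peaks were in the differential list, and the Sirt7 peak with the largest ratio was not.

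**Figure D5:**
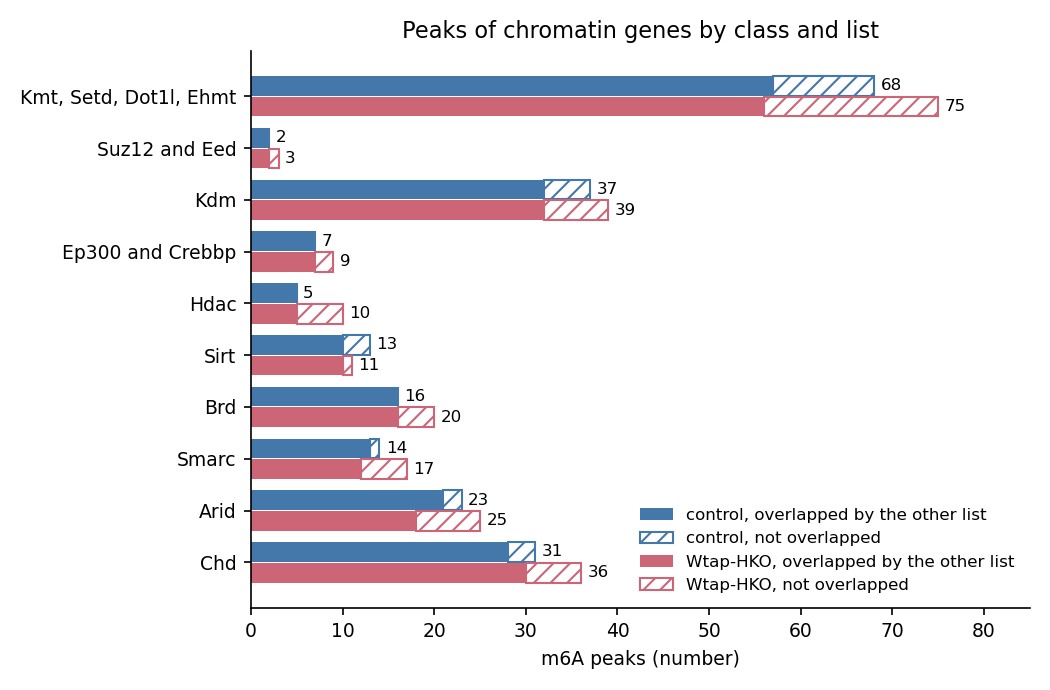
Number of m6A peaks (horizontal axis) per class of chromatin gene in the control list (blue) and the *Wtap*-HKO list (red), filled where a peak of the other list overlapped and hatched where none did. The Hdac genes have 5 control and 10 *Wtap*-HKO peaks. No control peak is hatched for them, for the Brd genes, for Ep300 with Crebbp or for Suz12 with Eed. The Sirt genes are the only class with fewer *Wtap*-HKO peaks (11 against 13).

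Bromodomain genes, readers of acetylated histones, kept all 16 control peaks and had 20 in *Wtap*-HKO livers. Of all control peaks 80.1% were kept, and the deacetylases and Ep300 with Crebbp also kept all of theirs. Brd2, a member of the BET group, kept its 3 peaks at 2.73, 1.94 and 3.58 in control and 2.61, 1.76 and 3.92 in *Wtap*-HKO livers, all within a log2 ratio of -0.14 to 0.13. Brd3, also of that group, was the exception of the class, with a peak near its 3′ end (chr2:27448184-27449283, minus strand) of 9.04 in control and 3.48 in *Wtap*-HKO livers, a log2 ratio of -1.38, and a row in the differential list. Brd1, a scaffold of histone acetyltransferase complexes, had peaks of 3.32 and 5.16 in control, 3.91 and 6.51 in *Wtap*-HKO livers, and the 5′ start peak of 19.0 in *Wtap*-HKO livers only.

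Subunits of the SWI/SNF remodellers and their relatives had a median fold enrichment of 3.70 in control and 5.11 in *Wtap*-HKO livers. Over all chromatin genes it was 5.25 and 5.35, and in control the bromodomain genes (3.465) and sirtuins (3.65) were lower still. The class medians include the Smarcd3 peaks described below. Of the 11 peaks found 1 to 1, 8 were higher in *Wtap*-HKO livers (median log2 ratio 0.52, interval -0.89 to 0.95), beside 5289 of 10499 for all genes. Smarca2, the BRM ATPase, had 4 peaks in both lists. From 5′ to 3′ they were 4.54, 2.91, 1.94 and 1.84 in control and 2.39, 5.63, 4.20 and 2.93 in *Wtap*-HKO livers, so the first was lower and the other 3 were higher, with the lowest and the highest ratio of the class in 1 gene. In Smarcc2, a core scaffold, the peaks were 5.93 against 7.91 and 2.14 against 1.74. Smarcad1, a remodeller outside the SWI/SNF complexes, had a 3′ peak of 9.49 in control and 5.11 in *Wtap*-HKO livers. The core genes Smarcb1 and Smarcc1 and the annealing helicase Smarcal1 were in the *Wtap*-HKO list only, with single peaks of 2.68, 12.6 and 3.22, those of Smarcb1 and Smarcc1 at the 5′ end. Smarcb1 was the only one of the 10 genes of the class in the differential list, which held 27.8% of all genes with a peak. Peaks listed for Smarcd3 at 5.27 and 8.40 in control and 16.2 in *Wtap*-HKO livers lay outside its RefSeq span and under peaks of Chpf2 on the opposite strand with nearly the same values (5.31, 8.53 and 16.4), so those reads cannot be given to Smarcd3.

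The ARID-domain genes, which include the DNA-binding subunits of SWI/SNF complexes, held the highest single value of the chromatin genes in each list. Their median fold enrichment was 7.03 in control and 8.31 in *Wtap*-HKO livers, against 5.25 and 5.35 over all chromatin genes. In control the medians of Ep300 with Crebbp (8.97) and of the deacetylases (7.47) were higher. Of the ARID genes' 15 peaks found 1 to 1, 10 were lower in *Wtap*-HKO livers, beside 5187 of 10499 for all genes. The median log2 ratio of the 15, from 7 genes, was -0.25 (interval -0.73 to 0.52), and the interval cannot decide the direction. Arid1b had the highest control value of the set, 36.0 close to its 5′ end, where the *Wtap*-HKO peak reached 20.0. Its false discovery rate was 6.3e-12 at the control peak of 36.0 and 1e-157 at that of 18.3. Toward its 3′ end 18.3 in control met 18.1, 3.15 met 3.14, and 2.41 met 4.24. In Arid1a, its paralogue, a peak near the 3′ end was 16.5 and 12.2, and control peaks of 26.3 and 5.47 near the 5′ end met 1 *Wtap*-HKO peak of 13.3. Arid5a, known for binding and stabilising inflammatory mRNAs, had higher values in *Wtap*-HKO livers. A control peak of 12.7 met one of 27.1, and control peaks of 10.8 and 7.03 met 1 *Wtap*-HKO peak of 68.7, the highest value of the set in that list, with further *Wtap*-HKO peaks of 20.8 and 3.55 alone. The false discovery rate was 3.2e-19 for the peak of 68.7 and 3.0e-05 for that of 20.8, which covered 121 bases. Arid5b, a co-factor of a lysine 9 demethylase, was 6.82 in control and 3.91 in *Wtap*-HKO livers in one peak and had a lone *Wtap*-HKO peak of 28.0. The lone peak covered 150 bases at a false discovery rate of 1.1e-07, against 4.0e-32 for the peak of 3.91. Arid4a, a partner of the retinoblastoma protein, had peaks of 3.28 and 8.43 in control and 6.10 and 12.1 in *Wtap*-HKO livers. Arid3a, a DNA-binding transcription factor, was in the *Wtap*-HKO list only, with peaks of 48.8 and 8.58. Their false discovery rates were 2.5e-13 and 0.0014. None of the 8 ARID genes had a row in the differential list, against 27.8% of all genes with a peak that had one.

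The CHD remodellers had 31 control and 36 *Wtap*-HKO peaks. None of their 23 peaks found 1 to 1 differed by 2-fold, though the lowest log2 ratio, -0.995, fell just short. Of all such peaks 14.9% were at least 2-fold higher and 12.4% at least 2-fold lower. In *Wtap*-HKO livers 15 of the 23 were higher, beside 5289 of 10499 for all genes (median log2 ratio of the 23, 0.22, interval -0.31 to 0.53). The counts include 4 peaks listed as Chd1 that lay within Riok2, 3 in control and 1 in *Wtap*-HKO livers. Chd4, the ATPase of the NuRD co-repressor that also holds Hdac1 and Hdac2, kept its 6 peaks. From 5′ to 3′ they were 4.83, 3.44, 2.02, 2.12, 2.54 and 2.17 in control and 9.49, 3.51, 1.63, 2.32, 3.17 and 2.72 in *Wtap*-HKO livers, with the largest difference in the first. Chd7, mutated in CHARGE syndrome, kept 5 of 6 control peaks, and its 5′ end peak of 6.73 was in control only. Chd8, a relative of Chd7, kept all 5. Its 3′-most peak was 6.12 in control and 3.07 in *Wtap*-HKO livers, while its neighbour less than 200 nt away was 9.90 and 15.6, and a peak of 7.84 against 5.95 shared 50 to 80 bases with an unnamed gene on the other strand. Chd9 had one peak of 7.69 in control and 3.94 in *Wtap*-HKO livers, and its control peak of 13.7 met 2 *Wtap*-HKO peaks of 11.7 and 5.51 and had a row in the differential list. Chd1l, a remodeller recruited by poly(ADP-ribose), had 1 *Wtap*-HKO peak of 5.42. Chd3os, a noncoding transcript that met the name rule and is no remodeller, had 1 *Wtap*-HKO peak of 30.7 inside the RefSeq span of Rnf227.

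The authors' differential list held 16 of the 91 genes (17.6%), with 1 row each, against 27.8% of all genes with a peak. Of the 16 rows, 9 overlapped a peak in both lists, 3 in control only and 4 in *Wtap*-HKO livers only. They covered 6 methyltransferases, 3 demethylases, 3 CHD remodellers, 2 sirtuins, 1 bromodomain gene and 1 SWI/SNF subunit. Besides the genes already given, Chd3 was 6.65 and 9.62 and Kdm1b 6.67 and 3.74. The row of Dot1l met only a control peak, of 4.59. Those of Kmt5c and Setd1b met only *Wtap*-HKO peaks, of 2.87 and 7.37. Dot1l, Kmt5c and Setd1b each had other peaks in both lists. Chd3, Kdm1b, Dot1l, Kmt5c and Setd1b were named after their values were seen. The direction was thus mixed within the 16 rows. Among the 8 rows that met 1 peak in each list, 5 were higher and 3 lower in *Wtap*-HKO livers.

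A further 65 chromatin genes outside the name rule, such as acetyltransferases, COMPASS partners, Polycomb repressive complex 1 and co-repressor subunits, were counted in the same way. Of these 56 had a peak in either list, 6 of them in the *Wtap*-HKO list only and 1 in control only, and 11 were in the differential list (22.0%, 7.99% and 27.8% of all genes). Their peaks numbered 118 in control, of which 13 met none in the other list (19.9% of all control peaks), and 133 in *Wtap*-HKO livers, of which 28 met none (35.3% of all). The median log2 ratio of their 94 peaks found 1 to 1 was 0.08, with medians from -0.07 for the remodellers to 0.25 for the acetyltransferases.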

How the data were processed

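The authors prepared IP and input libraries with an RNA kit for which strand marking is not stated, trimmed reads with fastp 0.19.11, aligned them to GRCm38 with BWA mem 0.7.12 and called peaks with exomePeak, with HOMER 4.9.1 among the tools in the submitters' processing notes. The 8 libraries were deposited as 3 peak lists with replicates combined by a rule not given in the sources used here. The authors deposited fold enrichment as the plain ratio of IP to input reads, and the deposited log10 scores are false discovery rates. The 3 columns of the authors' own comparison in the differential list (log2 fold change, p-value and false discovery rate) were not used. That list served only for which rows it holds, where they lie and their overlap.

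Peaks were read as exon blocks and matched by at least 1 shared exonic base on the same strand, with a routine tested on simulated peaks (Python 3.11.15, pandas 2.3.3). Positions were taken relative to RefSeq gene spans of GRCm38.p6 (90 of the 91 genes matched) and are given 1-based. Of the 13 chromatin gene peaks outside their own gene's span, 4 were listed as Chd1 and lay within Riok2. No annotation of UTRs was used, and peak sequences were not read because no genome was used here. A peak's strand is that of its annotated gene, so overlapping genes cannot be told apart. No test across replicates was possible, and a 95% Wilson interval is printed only for the share of control peaks kept. Named genes were Hdac1, the 3 genes of each class with most control peaks, genes with a peak in 1 list only, and the peaks found 1 to 1 with the 2 largest and 2 smallest ratios per class, and 1 gene so named is not reported here. In the list of further chromatin genes 2 older symbols of listed genes were counted once. The genes, lists and tests were chosen with earlier results of these data known. Alternatives changed the overlap, the thresholds and the distance from a gene end.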

Additional observations from a re-analysis of the deposited data

How the results depend on the processing

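The 22 alternative settings covered values of the chromatin genes only, so the shares of all genes beside them were not rechecked. The ratios at the gene ends were not among those values. Of the 22 settings, 21 moved the values by less than their interval, or by less than 1.5 times for counts. The exception was the share of *Wtap*-HKO peaks of chromatin genes met by a control peak, which fell to 70.6% when the overlap had to reach 50% of each *Wtap*-HKO peak. No paired analysis was possible because the lists combine the replicates of each genotype, and for the same reason no replicate could be left out. The depth behind the lists is unknown, so a gene without a peak may lie under the detection limit. Fold enrichment depends on a scaling of IP and input that the sources used here do not describe, so the ratio between lists may hold a shift common to all genes.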
